A study of Homo sapiens with 40 samples.

Results

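The genes described are 10 glycolytic enzymes and glucose transporters: the transporters SLC2A1 (GLUT1) and SLC2A3 (GLUT3), and the enzymes ALDOA, TPI1, GAPDH, PGK1, ENO1, ENO2, PKM and LDHA. They were chosen by symbol, as every probe that the probe-to-gene table assigns to one of these genes. All 10 were measured, by 20 of the 15246 probes, and they are 10 of the 4604 named genes. Tests ran over 9681 features, a feature being a named gene (the mean of its probes) or 1 unnamed probe. No filter on low values was applied, so that every gene entered every test.

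The values come from 40 spotted 2-colour arrays on human cell lines that carried a doxycycline-inducible retroviral shRNA against CASP10, the gene of caspase-10. The lines SKMM1, H929 and KMS12 come from multiple myeloma, a cancer of plasma cells. The lines OCI-Ly7 and OCI-Ly19 come from B-cell lymphoma. The Cy5 channel held RNA of cells given 20 ng/ml doxycycline for 24 to 120 hours (days 1 to 5), and the Cy3 channel that of uninduced cells of the same line, hairpin and day, except on 4 arrays. With the hairpin shCasp10-2 there were 12 arrays of SKMM1 (3 repeats), 8 of H929 (2 repeats), 4 of KMS12, 2 of OCI-Ly7 and 2 of OCI-Ly19, and with the hairpin shCasp10-3 there were 4 of H929 and 4 of KMS12. On the other 4 arrays, days 1 to 4, induced SKMM1 with shCasp10-2 was compared with induced SKMM1 that carried a control shRNA. Doxycycline was in both channels only on those 4 arrays. A time course, that is, 1 line, 1 hairpin and 1 repeat, was the replicate: 8 in myeloma, 2 in lymphoma and 1 against the control shRNA.

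Glycolysis turns glucose into pyruvate in the cytosol and yields ATP. Glucose enters through SLC2A1 and SLC2A3, ALDOA splits fructose bisphosphate, TPI1 interconverts the resulting triose phosphates, and GAPDH, PGK1, an enolase (ENO1, or ENO2, the form abundant in neurons) and PKM carry the triose to pyruvate, which LDHA reduces to lactate. Many of these genes are induced by hypoxia through HIF-1, which binds DNA at the core motif ACGTG, and by MYC, which binds CACGTG, a palindrome that holds ACGTG on both strands. Malignant plasma cells and lymphoma cells, like other proliferating cells, commonly run glycolysis at a high rate.

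Promoter sequences were taken from RefSeq (GRCh38.p14), which had an entry for 9 of the 10 genes. The 250 bases before a listed transcription start are shown for ENO2, PGK1 and LDHA. These are 3 of the 7 genes that passed as lower in SKMM1 against the control shRNA, and all 3 hold ACGTG. PKM and SLC2A1 passed there too and hold none in this window. For comparison the bases are also shown for GAPDH, which did not pass there. The windows of the first 3 end where the listed gene begins, whereas the GAPDH window lies inside the gene, which begins at chr12:6534517. All 4 are on the plus strand, read 5′ to 3′, with every ACGTG of either strand in capitals.
ENO2 (chr12:6914330-6914579): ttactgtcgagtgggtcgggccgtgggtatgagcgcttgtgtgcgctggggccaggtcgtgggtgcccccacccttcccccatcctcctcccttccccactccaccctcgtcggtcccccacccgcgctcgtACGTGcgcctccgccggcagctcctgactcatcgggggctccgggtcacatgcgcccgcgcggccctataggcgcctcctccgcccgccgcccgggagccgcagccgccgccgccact
PGK1 (chrX:78103998-78104247): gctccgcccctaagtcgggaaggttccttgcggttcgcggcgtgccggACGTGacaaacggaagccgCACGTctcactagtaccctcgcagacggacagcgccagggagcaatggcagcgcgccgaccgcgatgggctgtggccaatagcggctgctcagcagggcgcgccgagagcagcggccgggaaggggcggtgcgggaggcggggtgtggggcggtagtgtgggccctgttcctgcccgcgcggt
LDHA (chr11:18394313-18394562): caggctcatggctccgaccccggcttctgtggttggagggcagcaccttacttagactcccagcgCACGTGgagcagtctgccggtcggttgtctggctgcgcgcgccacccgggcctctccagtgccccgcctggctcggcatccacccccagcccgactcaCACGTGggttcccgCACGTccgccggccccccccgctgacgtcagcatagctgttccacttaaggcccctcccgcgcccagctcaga
GAPDH (chr12:6535014-6535263): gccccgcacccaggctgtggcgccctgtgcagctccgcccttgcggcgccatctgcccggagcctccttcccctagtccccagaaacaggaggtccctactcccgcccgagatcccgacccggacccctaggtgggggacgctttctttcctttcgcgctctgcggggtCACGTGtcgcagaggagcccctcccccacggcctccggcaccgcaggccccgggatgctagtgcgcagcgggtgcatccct
ENO2 held the motif once, 118 bases before the start, and PGK1 held it 202 and 183 bases before the start. LDHA held 5 occurrences, 4 of them as 2 copies of CACGTG, and GAPDH held CACGTG once. Of the 9 genes, 6 had at least 1 occurrence before a listed start (ENO2, PGK1, LDHA, ALDOA, GAPDH and TPI1), and PKM, SLC2A1 and ENO1 had none in this window. Some genes have several listed starts. The PKM window and the TPI1 window that held the motif lie inside their genes. Counted by window, 8 of the 13 windows of these genes held ACGTG, and 18.5% of all 35116 promoter windows of this length did. Of the genes that passed as lower in myeloma on single arrays without the wide ones, ENO2 thus held the motif and PKM and SLC2A1 did not. GAPDH and ALDOA, which did not pass, held it. A match says nothing about binding.

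Values are log2 ratios of induced over reference cells, so that a value below 0 is a lower level after the hairpin was induced. The direction of the deposited ratio (Cy5 over Cy3) is likely but not stated. On 12 of the 40 arrays, here called wide, over 10% of the probes had a log2 ratio beyond 3 in size (10.3% to 46.4%, against 0.0262% to 8.58% on the others); among them were all 4 arrays of SKMM1 repeat 2. Such values leaned to 1 side on each wide array. On day 2 of SKMM1 repeat 2, 30.5% of probes were below -3 and 0.17% above 3. Day 4 of SKMM1 repeat 3 (14.3% above 3, 0.43% below -3) and day 3 of OCI-Ly7 (13.2% and 0.11%) leaned the opposite way to the other wide arrays. The remaining arrays of these courses also leaned above 3 (5.48% to 8.53% of probes). What this skew does to the values below was not tested. Array medians ranged from -2.15 to 0.36, and from -0.11 to 0.31 on arrays that were not wide. Over all probes on days 2 to 4, the arrays of SKMM1 repeat 2 correlated negatively with those of repeat 3 (r from -0.441 to -0.157) and of repeat 1 (-0.392 to -0.239), so that the direction of repeat 2 against the other repeats is unsettled. Repeat 3 correlated positively with repeat 1 on every pair of arrays (0.134 to 0.515). Results are given with the sign of repeat 2 or of repeat 3 turned where this changes them; fits without the wide arrays do not use repeat 2. CASP10 itself was below 0 on 29 of 32 myeloma arrays against uninduced cells, 11 of 12 in SKMM1, and on 4 of 4 against the control shRNA, but above 0 on both arrays labelled OCI-Ly7 (1.5 and 2.04), which goes against their label. Each array compares cells of 1 line, so the markers of the lines could not be checked for level.

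**Figure D1:**
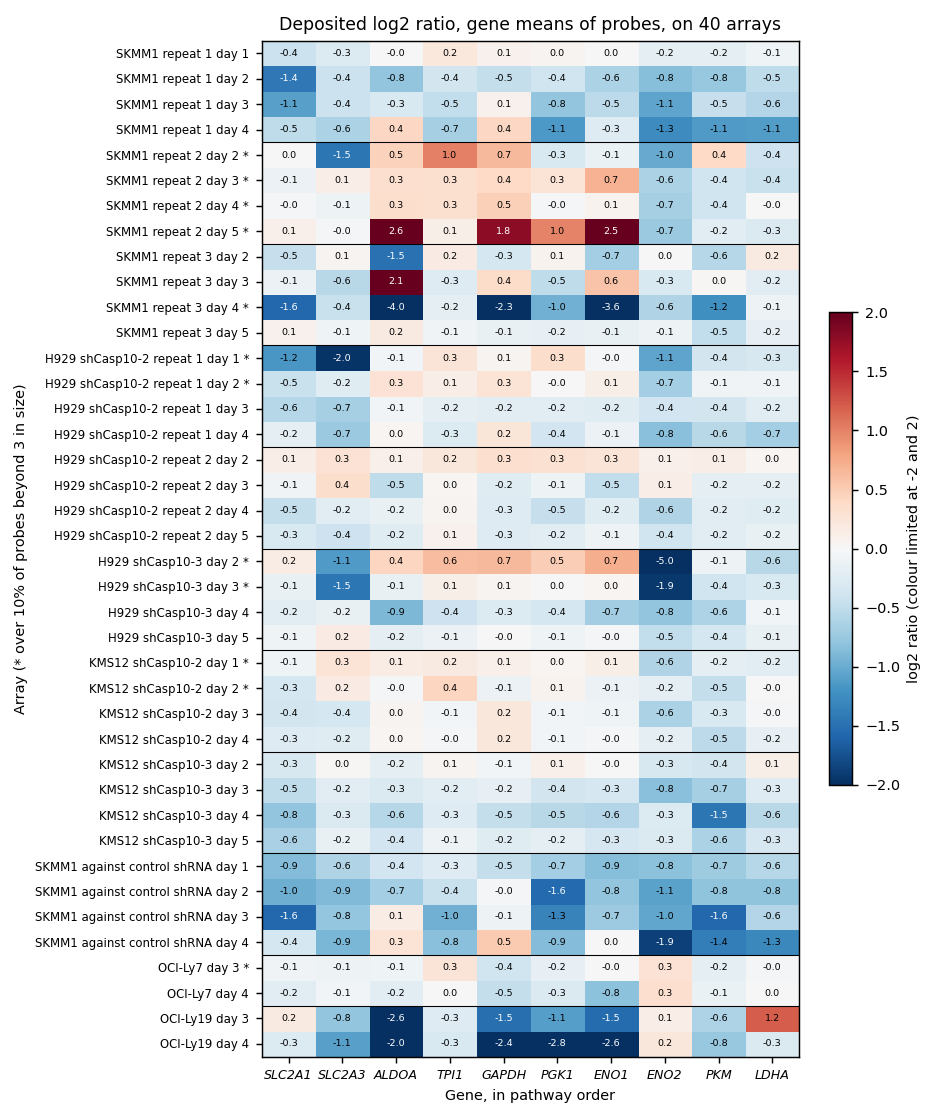
Log2 ratio of the 10 genes (columns, in pathway order) on each of the 40 arrays (rows, grouped by course), with the value printed and colour limited at -2 and 2; an asterisk marks a wide array. PKM is below 0 on 37 arrays and GAPDH on 22, and ALDOA, GAPDH and ENO1 are all far below 0 on SKMM1 repeat 3 day 4 and on both OCI-Ly19 arrays and far above it on SKMM1 repeat 2 day 5.

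Across all 40 arrays, the genes graded from those mostly below 0 to those on either side of it. PKM was below 0 on 37 arrays, LDHA on 35, SLC2A1 on 34, ENO2 on 33 and SLC2A3 on 32. PGK1 and ENO1 were each below 0 on 29 arrays, ALDOA on 24, GAPDH on 22 and TPI1 on 21. Measured against the median of the same array, PKM and ENO2 were below it on 32 of 40 arrays, SLC2A1 on 30, SLC2A3 on 29, LDHA on 27, PGK1 on 26, ENO1 on 25, and GAPDH, TPI1 and ALDOA on 20, 20 and 19.

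In the myeloma lines, the question was which of these genes respond when CASP10 is knocked down. PKM, ENO2 and SLC2A1 were lower by about 0.5 on the log2 scale, that is, at ratios of 0.70 to 0.73, when single arrays were fitted without the wide ones, while GAPDH lay close to 0 in both fits. None of the 10 passed with course means of all arrays or on all single arrays without array weights. With array weights on all single arrays 8 passed, among 1742 of the 9681 features called. Days 2 to 4, which every course covers, entered the tests (24 arrays, 16 of them not wide), with the 3 lines weighted equally. With the course mean as the unit and the wide arrays left out, limma called 0 of 9681 features, the smallest limma adjusted p being 0.257.

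**Figure D2:**
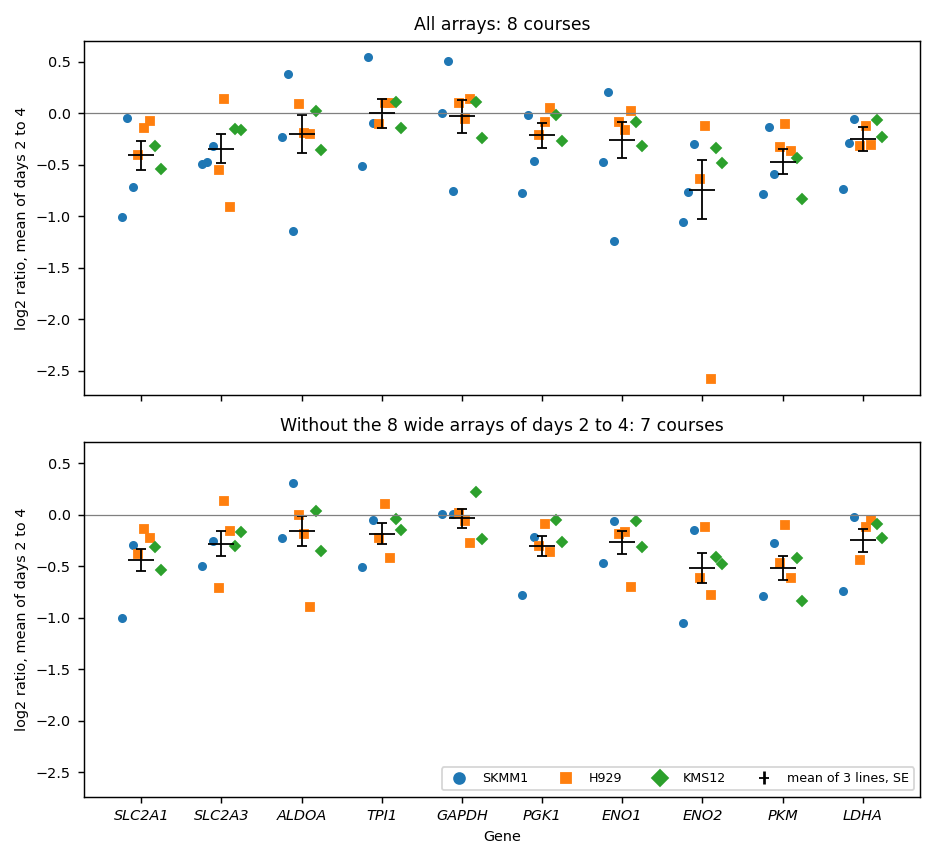
Mean log2 ratio over days 2 to 4 in each myeloma course (circles SKMM1, squares H929, diamonds KMS12) for the 10 genes, with the fitted mean of the 3 lines and its SE in black; the upper panel has all arrays (8 courses) and the lower panel leaves out the wide arrays (7 courses). All points of SLC2A1, ENO2, PKM and LDHA lie below 0 in both panels, and the ENO2 point at -2.58 is H929 with shCasp10-3.

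SLC2A1, the basal glucose transporter of most cells, had a log2 ratio of -1.57 on its lowest array (SKMM1 repeat 3 day 4), a median of -0.33 and 0.16 on its highest, with 21 of 24 arrays below 0. The highest value was on day 2 of H929 with shCasp10-3, and all 8 course means were below 0, from -1.0 in SKMM1 repeat 1 to -0.05 in SKMM1 repeat 2. The fit on course means of all arrays gave -0.41 (SE 0.14, limma adjusted p = 0.682). On single arrays without the wide ones SLC2A1 fell by 0.45 (SE 0.11, limma adjusted p = 0.0299).

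SLC2A3, the high-affinity transporter of neurons and leukocytes, ranged from -1.45 to 0.36 with a median of -0.27, and 18 of 24 arrays were below 0. Its 8 course means included 1 above 0, H929 shCasp10-2 repeat 2 at 0.14. The difference was -0.34 (SE 0.14, limma adjusted p = 0.682) with all arrays and -0.28 (SE 0.096, adjusted p = 0.109) on single arrays without the wide ones, and it passed in neither fit.

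ENO2 had the largest deviation of the 10 genes on any array, -5.03 on day 2 of H929 with shCasp10-3, a wide array. Its median over the 24 arrays was -0.63 and its highest value 0.14, with 21 arrays below 0. The 8 course means ran from -2.58 to -0.12, and without the wide arrays the 7 that were left ran from -1.05 in SKMM1 repeat 1 to -0.12 in H929 shCasp10-2 repeat 2. ENO2 was at -0.74 (SE 0.29, limma adjusted p = 0.682) with all arrays and fell by 0.51 (SE 0.12, adjusted p = 0.0306) on single arrays without the wide ones.

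PKM, which makes pyruvate in the last ATP-yielding step, had its lowest log2 ratio, -1.45, on day 4 of KMS12 with shCasp10-3. Its median was -0.40 and its highest value 0.41, on a wide array of SKMM1 repeat 2. PKM was below 0 on 21 of 24 arrays and in 8 of 8 courses, which lay between -0.83 and -0.10. The fit on course means of all arrays gave -0.47 (SE 0.12, limma adjusted p = 0.682). A decrease passed on single arrays without the wide ones, where PKM fell by 0.51 (SE 0.12, adjusted p = 0.0289).

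LDHA, which regenerates NAD+ by making lactate, was also below 0 in 8 of 8 courses, from -0.74 in SKMM1 repeat 1 to -0.05 in SKMM1 repeat 3. Its arrays ranged from -1.12 through a median of -0.22 to 0.18. LDHA passed in neither fit, at -0.25 (SE 0.11, limma adjusted p = 0.682) and -0.27 (SE 0.10, adjusted p = 0.137). PGK1, the first ATP-yielding enzyme, was close to it, at -0.21 (SE 0.12, limma adjusted p = 0.682) with all arrays and -0.31 (SE 0.11, adjusted p = 0.106) on single arrays without the wide ones. PGK1 ranged from -1.14 to 0.50 with a median of -0.16, and SKMM1 repeat 1 was its lowest course at -0.78.

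TPI1, the triose isomerase, was on both sides of 0: 12 of 24 arrays were below it, the lowest at -0.66, the median at 0.005 and the highest at 1.01. Its fitted value was 0.0011 (SE 0.14, limma adjusted p = 0.997) with all arrays and -0.18 (SE 0.074, adjusted p = 0.183) without the wide arrays.

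ENO1, ALDOA and GAPDH had large values of either sign, and these lay on the same arrays. On day 4 of SKMM1 repeat 3, a wide array, ENO1 was at -3.59, ALDOA at -4.05 and GAPDH at -2.30. On day 5 of SKMM1 repeat 2, also wide, the same genes were at 2.46, 2.59 and 1.79. In SKMM1 repeat 3 ALDOA was at -1.50 on day 2 and 2.12 on day 3, on arrays that were not wide. The medians over the 24 arrays were near 0, at -0.13 for ENO1, -0.04 for ALDOA and 0.07 for GAPDH.

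None of the 3 passed: ENO1 was at -0.26 (SE 0.12, limma adjusted p = 0.22) on single arrays without the wide ones, ALDOA at -0.15 (SE 0.25, adjusted p = 0.797) and GAPDH at -0.03 (SE 0.11, adjusted p = 0.897). With the sign of SKMM1 repeat 3 turned, the values of all arrays were 0.02 for ENO1, 0.06 for ALDOA and 0.14 for GAPDH. With the sign of SKMM1 repeat 2 turned instead they were -0.30, -0.28 and -0.14.

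Read over the list, 4 of the 10 genes (PKM, ENO2, SLC2A1 and LDHA) were below 0 in all 8 myeloma courses with all arrays, where 3% of all features were. Without the wide arrays 6 of 10 (these 4, PGK1 and ENO1) were below 0 in all 7 courses, against 4.19% of all features. These counts take every course as deposited: with the sign of SKMM1 repeat 2 turned 0 of 10 genes and 0.899% of features were below 0 in all 8 courses, and with that of repeat 3 turned 0 of 10 genes and 4.04% in all 8, or 2.81% in all 7. Genes below 0 in every course as deposited drop out of a turned count by construction, so such a count could only hold other genes. In the fit of single arrays without the wide ones limma called 3 of 10 genes, all lower, where 4.57% of the 9681 features were called and 3.13% were called lower. The median of the 10 genes was -0.27 in that fit and that of all features 0.01. With course means of all arrays the genes' median of -0.25 was no lower than that of all features, -0.27. In that fit limma called 0 features (percent called 0), with 467 of the features and 4 of the 10 genes at an unadjusted p under 0.05.

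The 3 calls depended on which courses were kept. On single arrays without the wide ones, PKM, ENO2 and SLC2A1 all missed the threshold when either KMS12 course, H929 with shCasp10-3 or H929 shCasp10-2 repeat 1 was left out. PKM then had a limma adjusted p of 0.178 without KMS12 shCasp10-3, 0.0784 without KMS12 shCasp10-2, 0.0522 without H929 shCasp10-3 and 0.0902 without H929 shCasp10-2 repeat 1, at differences from -0.58 to -0.44. Without SKMM1 repeat 1 only SLC2A1 passed, at -0.32 (adjusted p = 0.0477), and without SKMM1 repeat 3 LDHA at -0.37 (adjusted p = 0.0371) and PGK1 at -0.39 (adjusted p = 0.0448) passed as well. Without H929 shCasp10-2 repeat 2 SLC2A3 passed too, at -0.37 (adjusted p = 0.0318). Leaving out courses also changed how many features passed, from 0 without KMS12 shCasp10-2 to 790 without SKMM1 repeat 3. Turning the sign of SKMM1 repeat 3, which as deposited correlated positively with repeat 1, ended the calls as well: PKM was then at -0.43, ENO2 at -0.47 and SLC2A1 at -0.36, with 0 of 10 genes and 0 of 9681 features called by limma and 989 features at an unadjusted p under 0.05.

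By line, SLC2A1 and PKM were nearest to 0 in H929, but no difference between lines passed for any member with course means of all arrays or on single arrays without the wide ones. For SLC2A1 the order on single arrays without the wide ones was SKMM1 at -0.69 (SE 0.19), KMS12 at -0.43 (SE 0.19) and H929 at -0.24 (SE 0.17). In this fit a member passed in SKMM1 alone: SLC2A1 had a limma adjusted p of 0.0361 there, among 11.7% of features called and 3.36% called lower. SKMM1 minus H929 was -0.45 for SLC2A1 (SE 0.25, adjusted p = 0.374), and the neighbouring lines in that order did not differ beyond their spread either. In H929 and KMS12 limma called 0 features, with 593 and 958 at an unadjusted p under 0.05.

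PKM had another order, with KMS12 lowest at -0.65 (SE 0.21, limma adjusted p = 0.364), then SKMM1 at -0.56 (SE 0.21, adjusted p = 0.085) and H929 at -0.34 (SE 0.19, adjusted p = 0.866). ENO2 was at -0.65 in SKMM1, -0.45 in KMS12 and -0.43 in H929, each with an SE of about 0.2 (0.19 to 0.22). PGK1 was at -0.53 in SKMM1 (SE 0.19, adjusted p = 0.0743) and at -0.22 and -0.17 in H929 and KMS12. In the fits of course means of all arrays no member passed in any line, and no feature did. On the median-centred arrays that were not wide, 5 of 10 members passed as lower in SKMM1, among 1536 features called, 768 of them lower.

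Within SKMM1 the repeats differed. Repeat 1 was low for nearly every gene, with course means of -1.05 for ENO2, -1.0 for SLC2A1, -0.79 for PKM, -0.78 for PGK1 and -0.74 for LDHA. Repeat 3 without its wide array lay closer to 0, at -0.15, -0.29, -0.27, -0.22 and -0.03 for the same genes. Without the wide arrays, SKMM1 repeat 1 was thus the lower of the repeats for all 5. With repeat 3 left out, which leaves repeat 1 as the only SKMM1 course that is not wide, ENO2 at -1.05 (limma adjusted p = 0.0496) passed beside SLC2A1 at -1.0 (adjusted p = 0.042), where 2.37% of features were called and 1.77% called lower. With the sign of repeat 3 turned 0 members passed in SKMM1. SLC2A1 also missed the threshold without repeat 1, at -0.29 (adjusted p = 0.36), and without KMS12 shCasp10-3 (adjusted p = 0.0645) or shCasp10-2 (adjusted p = 0.0506), whose arrays add to the spread.

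The hairpins shCasp10-2 and shCasp10-3, both used in H929 and KMS12, gave no member that passed. With all arrays ENO2 differed most, shCasp10-3 minus shCasp10-2 being -1.32 (SE 0.57, limma adjusted p = 1), and it was -0.25 (SE 0.32, adjusted p = 0.895) without the wide ones. In KMS12, PKM was at -0.83 with shCasp10-3 and -0.44 with shCasp10-2, and SLC2A1 at -0.54 and -0.32. With 1 or 2 courses for each line and hairpin, these values have little replication.

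Over days 2 to 4 within a course, PGK1 and LDHA had the steepest downward slopes on arrays that were not wide, -0.34 per day (SE 0.0645) and -0.28 per day (SE 0.066). Neither passed across all features (limma adjusted p = 0.712 for both), and 0 features were called, with 608 at an unadjusted p under 0.05. Without SKMM1 repeat 1 the slope of ALDOA passed, upward at 1.12 per day (limma adjusted p = 0.0123), where 5.77% of features were called; the SKMM1 arrays that this leaves are days 2 and 3 of repeat 3. With all arrays the slope of PKM was -0.27 per day (SE 0.097) and that of PGK1 -0.26 (SE 0.11), both with a limma adjusted p of 0.399.

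In SKMM1 repeat 1, PGK1 was at 0.05, -0.40, -0.79 and -1.14 on days 1 to 4. LDHA was at -0.09, -0.51, -0.59 and -1.12. SLC2A1 did not follow this course: it was at -0.42, -1.42, -1.08 and -0.51 on days 1 to 4, lowest on day 2. KMS12 with shCasp10-3 had its lowest PKM (-1.45), SLC2A1 (-0.79), PGK1 (-0.55) and LDHA (-0.55) on day 4, and all 4 were nearer to 0 on day 5.

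**Figure D3:**
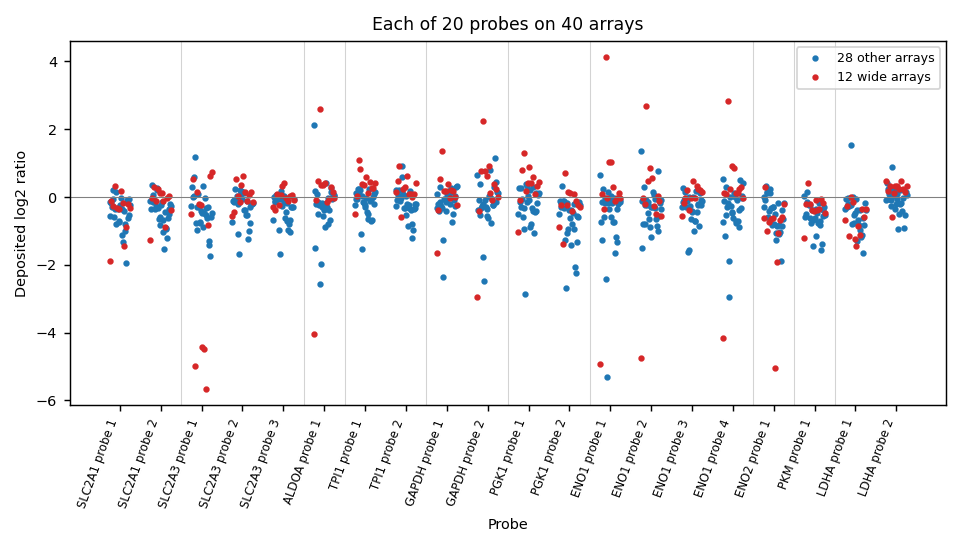
Log2 ratio of each of the 20 probes (columns, grouped by gene) on the 40 arrays, wide arrays in red. The 4 lowest values of SLC2A3 probe 1, between -5.65 and -4.42, are all on wide arrays, where its other 2 probes lie between -0.13 and 0.61.

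Probes of a gene did not always agree, and a gene mean can hide this. SLC2A3 has 3 probes: on day 1 of H929 shCasp10-2 repeat 1 the first was at -5.65 and the others at -0.12 and -0.13, and over all 40 arrays the first correlated with the others at -0.29 and -0.20 while those correlated with each other at 0.92. On the 4 arrays where the first probe was below -4, the low gene mean of SLC2A3 is thus the value of 1 probe. LDHA probe 1 was below probe 2 on 37 of 40 arrays, and the fit of single probes without the wide arrays gave -0.44 (SE 0.11, limma adjusted p = 0.0314) for the first and -0.10 (SE 0.10, adjusted p = 0.614) for the second. PGK1 showed the same pattern, with -0.12 (SE 0.11, adjusted p = 0.545) for probe 1 and -0.49 (SE 0.12, adjusted p = 0.036) for probe 2.

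SLC2A1 gave like values from both of its probes, -0.44 (SE 0.11, limma adjusted p = 0.0367) and -0.47 (SE 0.10, adjusted p = 0.0246). Altogether 6 of the 20 probes passed as lower in that fit (PKM, ENO2, both of SLC2A1, and 1 each of PGK1 and LDHA), where 5.84% of the 15246 probes were called and 4.07% called lower. PKM, ENO2 and ALDOA have a single probe each, so that no second probe checks them. Of the 4 ENO1 probes, 3 were between -4.92 and -4.15 on day 4 of SKMM1 repeat 3 and probe 3 was at -0.56. Spotted probes can bind transcripts of close relatives of a gene, such as SLC2A14 for SLC2A3 or the many GAPDH and LDHA pseudogenes, and this was not tested.

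**Figure D4:**
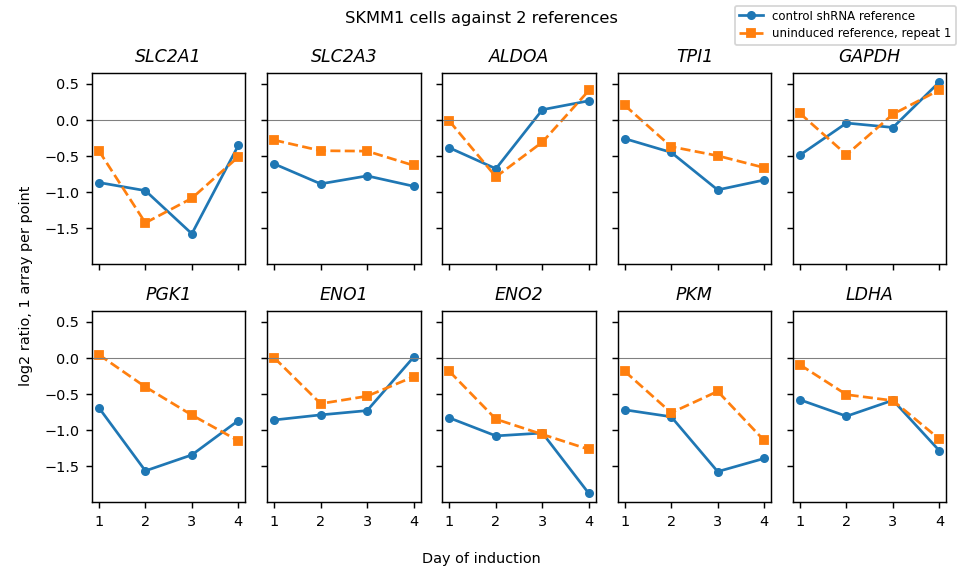
Log2 ratio of the 10 genes (1 panel each) on days 1 to 4 in SKMM1 with shCasp10-2, 1 array per point, against induced control-shRNA cells (blue circles) and, in repeat 1, against uninduced cells (orange squares). Against the control shRNA, SLC2A1, SLC2A3, TPI1, PGK1, ENO2, PKM and LDHA are below 0 on all 4 days, and ALDOA and GAPDH are above 0 on day 4.

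The 4 SKMM1 arrays against an induced control shRNA ask whether the decrease is also seen when both channels received doxycycline and a hairpin. On single arrays, TPI1, PGK1, ENO2, PKM, LDHA and both transporters were lower there, at ratios of 0.40 to 0.60, and ALDOA and GAPDH were near 0. There was 1 such course, tested over days 2 to 4 with the spread taken from all myeloma arrays. None of these 4 arrays was wide.

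PGK1 was at -0.69, -1.56, -1.34 and -0.86 on days 1 to 4 and fell by 1.26 over days 2 to 4 (SE 0.25, limma adjusted p = 0.00814). ENO2 was at -0.83, -1.08, -1.04 and -1.87 and fell by 1.33 (SE 0.30, limma adjusted p = 0.0125). PKM was at -0.72, -0.81, -1.57 and -1.39 and fell by 1.26 (SE 0.28, limma adjusted p = 0.0126). All 3 were below 0 on every day.

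Single probes were not fitted for this comparison, so none of its calls was checked by probe. TPI1 was at -0.26, -0.45, -0.97 and -0.83 and fell by 0.75 (SE 0.18, limma adjusted p = 0.0193). This is a mean of 2 probes, which correlated at 0.22 over all 40 arrays and at -0.08 over the 28 that were not wide. SLC2A3 was at -0.61, -0.88, -0.77 and -0.92 and fell by 0.86 (SE 0.22, limma adjusted p = 0.0232). LDHA was at -0.58, -0.80, -0.58 and -1.28 and fell by 0.89 (SE 0.25, limma adjusted p = 0.0345). SLC2A1 was at -0.86, -0.98, -1.57 and -0.35, lowest on day 3, and fell by 0.97 (SE 0.29, limma adjusted p = 0.0476).

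ENO1 was at -0.86, -0.79, -0.73 and 0.01 and did not pass, at -0.50 (SE 0.29, limma adjusted p = 0.326). ALDOA was at -0.38, -0.67, 0.14 and 0.27, and GAPDH at -0.48, -0.04, -0.10 and 0.53, with fitted values of -0.09 (SE 0.57, adjusted p = 0.943) and 0.13 (SE 0.25, adjusted p = 0.8). These 3 genes were above 0 on day 4, and the other 7 below it.

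In this comparison limma called 7 of 10 genes, all lower, where 8.07% of the features were called and 6.81% were called lower on single arrays without the wide ones. Of all features, 22.5% were below 0 on all 4 arrays, as were the same 7 genes. The genes' median was -0.87 and that of all features 0.04. Each call used the days of 1 course as separate arrays with the course as a random block. With the course mean as the unit, this comparison holds 1 value. The genes' median was then again -0.87, and limma called 0 of 9681 features, whether the wide arrays were kept or left out. With the sign of SKMM1 repeat 3 turned, 0 of 10 genes and 23 features passed on single arrays without the wide ones, and 7 of the 10 genes had an unadjusted p under 0.05. Leaving out another course left 5 to 7 members; SLC2A1 missed the threshold without either KMS12 course, H929 shCasp10-2 repeat 1 or repeat 2 (adjusted p from 0.0524 to 0.0797), and LDHA without KMS12 shCasp10-2. Leaving out a day of this course left 4 members without day 2 (PKM, ENO2, PGK1 and TPI1), where 4.92% of features were called, 3 without day 3 (ENO2, PGK1 and LDHA), with 3.49% called, and 3 without day 4 (PKM, PGK1 and SLC2A1), with 6.47% called. PGK1 was the gene that passed in each of the 3, with limma adjusted p from 0.00902 to 0.0366.

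Set beside the uninduced reference of the same line, the control shRNA reference gave lower values for 9 of 10 genes on single arrays without the wide ones. It also gave lower values for 68.5% of all features, with a median difference of -0.17, against -0.45 for the 10 genes. The difference, control shRNA reference minus uninduced reference, was largest for PGK1 at -0.73 (SE 0.32, limma adjusted p = 0.924), PKM at -0.70 (SE 0.35, adjusted p = 0.924) and ENO2 at -0.67 (SE 0.37, adjusted p = 0.924). No member and 0 of all features passed (497 had an unadjusted p under 0.05). The labels do not say whether the induced RNA of this course is that of SKMM1 repeat 1, so the courses may share their Cy5 samples and were not compared further.

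**Figure D5:**
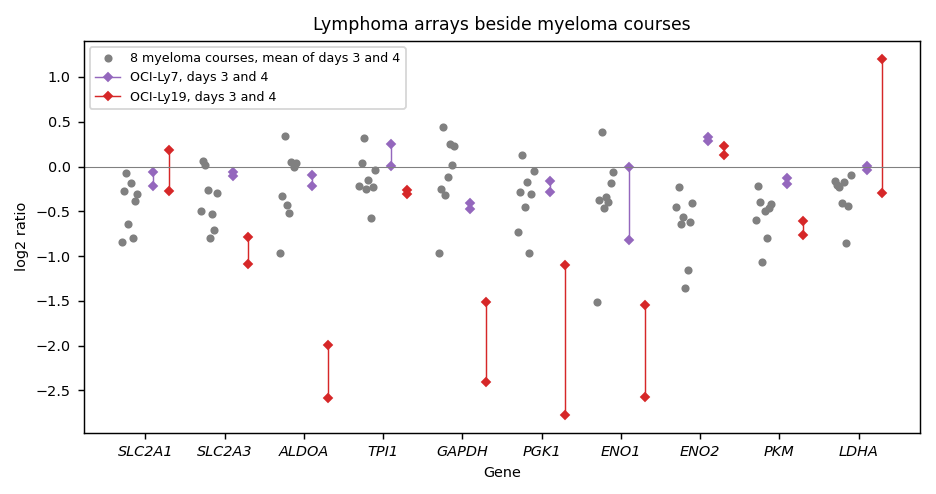
Log2 ratio of the 10 genes in the lymphoma lines on days 3 and 4 (diamonds joined by a line: purple OCI-Ly7, red OCI-Ly19) beside the mean of days 3 and 4 in each of the 8 myeloma courses (grey). As labelled, ENO2 is above 0 on all 4 lymphoma arrays and below 0 in all 8 myeloma courses, and ALDOA, GAPDH, PGK1 and ENO1 are below -1 on both OCI-Ly19 arrays.

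The lymphoma lines serve as the comparison outside myeloma. ALDOA, GAPDH, PGK1 and ENO1 were between -2.77 and -1.10 on the OCI-Ly19 arrays, whereas all genes but ENO1 were between -0.47 and 0.33 on the arrays labelled OCI-Ly7, of which day 3 is wide. On days 3 and 4 ALDOA was at -2.58 and -1.99 in OCI-Ly19 and at -0.09 and -0.21 on the arrays labelled OCI-Ly7. GAPDH was at -1.51 and -2.41 in OCI-Ly19 and at -0.40 and -0.47 in OCI-Ly7.

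PGK1 was at -1.10 and -2.77 in OCI-Ly19 and at -0.16 and -0.29 in OCI-Ly7, and ENO1 at -1.54 and -2.57 against -0.0017 and -0.82. LDHA went the other way on day 3 of OCI-Ly19, at 1.21, and was at -0.29 on day 4, with -0.04 and 0.01 in OCI-Ly7. PKM was at -0.61 and -0.76 in OCI-Ly19 and -0.20 and -0.13 in OCI-Ly7, and SLC2A3 at -0.79 and -1.09 against -0.11 and -0.06. SLC2A1 and TPI1 were between -0.30 and 0.25 on all 4 arrays, although the TPI1 probes ran opposite in OCI-Ly19, at -1.10 and -1.53 for probe 1 and 0.58 and 0.92 for probe 2.

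ENO2 was above 0 on all 4 lymphoma arrays (0.13 and 0.23 in OCI-Ly19, 0.28 and 0.33 in OCI-Ly7), as were 26.9% of all features. This takes the arrays labelled OCI-Ly7 as they stand, although CASP10 goes against their label; on both OCI-Ly19 arrays alone 37.8% of features were above 0. In myeloma its course means over days 3 and 4 were from -1.35 to -0.23. Lymphoma minus myeloma was 0.90 for ENO2 (SE 0.34, limma adjusted p = 0.639) with all arrays and 0.84 (SE 0.29, adjusted p = 0.218) without the wide ones, so the difference did not pass across all features. ENO1 and GAPDH had the smallest p among the members for the lymphoma response, at -1.55 (SE 0.31) and -1.35 (SE 0.31), both with a limma adjusted p of 0.0744.

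No member passed in either lymphoma comparison in these fits. For the response limma called 0 features (percent called 0) with all arrays, 836 features and 4 members having an unadjusted p under 0.05, and 1 feature (0.0103%) on single arrays without the wide ones. After median-centring these, 2 members passed, both lower, among 95 features called, 75 of them lower. With array weights on all single arrays 2 members passed as well, and the share of all features called there is not given here. With the arrays labelled OCI-Ly7 left out, 5 members passed as lower in OCI-Ly19 (GAPDH at -1.96, ENO1 at -2.06, PGK1 at -1.94, ALDOA at -2.28 and SLC2A3 at -0.94, limma adjusted p from 0.0012 to 0.0316), where 10.4% of features were called and 8.58% called lower. This leaves 1 lymphoma course, whose 2 days count as arrays and which is assumed to vary like the myeloma arrays. Against myeloma GAPDH, ENO1 and ALDOA passed in that fit, at differences of -1.99, -1.84 and -2.39, where 6.64% of features were called and 5.58% called lower. CASP10 was at -0.24 and 0.12 in OCI-Ly19, on either side of 0. Below 0 on both OCI-Ly19 arrays were 7 of 10 genes (PKM, PGK1, SLC2A3, ENO1, ALDOA, GAPDH and TPI1), against 34.6% of all features. All of these but TPI1 were also below 0 on both arrays labelled OCI-Ly7, where 12.3% of features were below 0 on all 4 arrays. With the sign of the OCI-Ly7 arrays turned it was 1 gene, TPI1, and 9.28% of features. Genes below 0 on all 4 arrays as labelled drop out of that count by construction. Without SKMM1 repeat 3, which lends only its spread, ENO1 and GAPDH passed over both lines, at -1.57 and -1.37, where 2.18% of features were called.

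How the genes moved together was described over the 21 myeloma arrays against uninduced cells that were not wide, each centred on its median; these arrays share courses, so no test is given. The closest pairs were PGK1 with TPI1 (Pearson r = 0.90), PGK1 with LDHA (0.89), LDHA with TPI1 (0.81), ENO2 with TPI1 (0.79), ENO1 with ALDOA (0.78) and ENO2 with PGK1 (0.78). ENO1, ALDOA and GAPDH also ran together, with r of 0.78 for ENO1 with ALDOA, 0.70 for ENO1 with GAPDH and 0.60 for ALDOA with GAPDH. Between these genes and the other 7, r ran from -0.47 for SLC2A3 with ALDOA to 0.60 for PKM with ENO1, with 0.56 for SLC2A1 with ENO1, 0.31 for PGK1 with ENO1 and 0.04 for PGK1 with GAPDH.

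Over all 40 arrays r among these 3 was higher, at 0.95 for ENO1 with GAPDH, 0.93 for ENO1 with ALDOA and 0.91 for ALDOA with GAPDH. PKM followed TPI1 at 0.91 over all 40 arrays and at 0.59 over the 21. GAPDH, often used as an unchanging reference gene, thus varied with ENO1 and ALDOA on these arrays, between -2.41 and 1.79.

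The named genes outside the list that were most like the mean of the 10 over the same 21 arrays were GSTK1, a mitochondrial glutathione transferase (r = 0.85), MIF, a cytokine (0.82), LGALS1, galectin-1 (0.80), ACVR1, an activin receptor (0.80), and TRAF3IP3 (0.80). The members themselves correlated with their own mean at 0.35 (ALDOA) to 0.80 (PKM). LGALS1 fell by 0.45 (limma adjusted p = 0.0358), TRAF3IP3 by 0.51 (adjusted p = 0.0299) and GSTK1 by 0.33 (adjusted p = 0.0306) on single myeloma arrays without the wide ones, and MIF at -0.25 and ACVR1 at -0.15 did not pass.

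Of 25 other glycolysis genes on the list used, 14 were measured, 8 of them below 0 in the myeloma response on single arrays without the wide ones, with a median of -0.06, and none passed. Of all features 47.7% were below 0 in that fit. With course means of all arrays 11 of the 14 were below 0, with a median of -0.21, and none passed. There 81.3% of all features were below 0, with a median of -0.27, so the count is near the share of all features. The values ran from -0.22 for HK1 (limma adjusted p = 0.166), which traps glucose by phosphorylation, to 0.42 for ENO3 (adjusted p = 0.745), the muscle enolase. Against the control shRNA 1 of the 14 passed: HK1 fell by 0.80 (SE 0.21, limma adjusted p = 0.0256), and the median was -0.01.

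Of the lists for neighbouring pathways, none had a member that passed in myeloma among pyruvate entry into mitochondria (7 measured, median -0.01), the pentose phosphate pathway (4, median 0.04), the tricarboxylic acid cycle (12, median -0.06), hexose side branches such as glycogen synthesis (6, median -0.18) or other sugar and lactate carriers (2, median -0.28). GBE1, the glycogen branching enzyme, fell by 1.20 against the control shRNA (SE 0.31, limma adjusted p = 0.0269), the only one of the 6 side-branch genes to pass there. Of 14 measured regulators of glycolysis genes, 0 passed in myeloma, with a median of -0.08. Against the control shRNA VHL, which marks HIF for degradation, fell by 0.58 (SE 0.16, limma adjusted p = 0.0331).

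Among 13 measured hypoxia-induced genes outside the 10, 4 of which also stand on the lists above, 2 passed in myeloma, both lower: ADM, the peptide adrenomedullin, fell by 0.34 (SE 0.077, limma adjusted p = 0.0287), and SIAH2, a ubiquitin ligase, fell by 0.52 (SE 0.11, adjusted p = 0.0229). The list's median was -0.10. Against the control shRNA 3 were lower and 1 higher. NDRG1 fell by 1.59 (SE 0.31, limma adjusted p = 0.00697), ADM by 0.96 (SE 0.23, adjusted p = 0.0177) and the prolyl hydroxylase gene P4HA1 by 0.91 (SE 0.23, adjusted p = 0.0235), while BNIP3, a mitophagy receptor, was higher by 0.57 (SE 0.17, adjusted p = 0.0451). The list's median there was -0.22, with 8 of 13 below 0, where 46.9% of all features were.

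Markers of other cells were also read beside the 10 genes. Of the measured plasma cell markers (6), mature B cell markers (5) and myeloid markers (4), 0 passed in myeloma on single arrays without the wide ones, with medians of -0.07, -0.07 and -0.06. Of 6 T and NK cell markers 1 passed, NKG7, which fell by 0.43 (SE 0.11, limma adjusted p = 0.0374), and all 6 were below 0. With all arrays in myeloma, the medians of the B, T and NK, and myeloid lists were -0.83, -0.80 and -0.59, further below 0 than that of the 10 genes. Against the control shRNA 5 of the 6 T and NK markers were below 0 (46.9% of all features), with a median of -0.57. For the lymphoma response with all arrays 0 of the 6 were (36.6% of all features), with a median of 0.78. Ratios within 1 line give no level, and the part of these shifts in the values of the 10 genes was not tested.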

How the data were processed

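The labels' protocols give 50 µg of total RNA per dye. What the authors deposited is 1 log ratio per probe and array (15246 probes on 40 arrays, 0 missing), read here as log2. Its base, background correction and normalization are not stated in the material at hand, and without intensities the signal over background cannot be given. Because no dyes were swapped, any dye effect enters each response against 0.

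Probes were named from a platform annotation, which is old: 10169 had 1 symbol, 4 several and 5073 none. The RefSeq gene table matched 10128 of them with 0 changes of symbol. A gene is the mean of its probes, which gave 9681 features. The replicate was the course. Course means over days 2 to 4 (days 3 and 4 beside lymphoma) were compared in limma 3.58.1 (R 4.3.3), with Benjamini-Hochberg adjustment over all features and a threshold of 0.05. A companion fit took single arrays with the course as a random block (duplicateCorrelation), without the wide arrays. Arrays of days 1 and 5 without a fitting repeat number were placed by runs of database numbers, and they enter only the alternative with all days.

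Every member is named. From the other lists only the highest and lowest gene and those that passed are named, and the 5 most similar genes were taken by Pearson r. The members, the lists and the definition of wide arrays were chosen with earlier results of these data known. The fits of the myeloma response were run on simulated arrays, drawn independently and without wide arrays or a shared course effect. That run cannot give the error rate of calls where days of a course are alike, and the other comparisons were not simulated. No label marks separate cultures, so p-values reflect the spread among these samples alone, which may be technical. Alternatives were centring, scaling, array weights, probe medians, turned signs, blocks and left-out courses. Leaving out days of the course against the control shRNA, and turning signs in the shares below or above 0, were chosen after seeing the data.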

Additional observations from a re-analysis of the deposited data

Results flagged for a closer look

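The values below are single courses that stood apart from the other courses of the same group by Dixon's criterion at the 95% level, which chance meets in about 1 in 20 groups; 20 groups were looked at. The ENO2 mean over days 2 to 4 of H929 with shCasp10-3 was -2.58, the lowest of 8 myeloma courses; 2 of its 3 arrays were wide, and the array that was not wide was at -0.78. The ENO1 mean of SKMM1 repeat 3 was -1.24, the lowest of 8, with the wide day 4 array at -3.59 and days 2 and 3 at -0.68 and 0.57. The LDHA mean of SKMM1 repeat 1 was -0.74, the lowest of 8, on arrays none of which was wide. Without the wide arrays, the PGK1 mean of SKMM1 repeat 1, -0.78, was the lowest of 7 courses.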

How the results depend on the processing

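With course means, with or without the wide arrays, no member passed, and on all single arrays none did either; calls of members came with single arrays without the wide ones, or with weights on the arrays. In myeloma 3 members and 442 features passed on single arrays without the wide ones, 3 and 579 after median-centring these, and 8 and 1742 with array weights; for SKMM1 the counts were 1 and 1130, 5 and 1536, and 8 and 2037. Array weights also gave 1 member in KMS12, 1 in SKMM1 minus H929, 2 in the lymphoma response and 1 in lymphoma minus myeloma. The features called there are not counted here, so these members cannot be set against the share of all features. Median-centred single arrays gave 2 members and 95 features in the lymphoma response. Against the control shRNA 7 members passed in each of these 3 settings, with 781, 961 and 1045 features, against 14 features on single arrays with the wide ones kept and 23 with the sign of SKMM1 repeat 3 turned. The causes of these shifts were not tested.

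Leaving out 1 course at a time, over both kinds of fit, gave 0 to 5 members and 0 to 790 features in myeloma, 0 to 2 and 0 to 1447 in SKMM1, 0 to 7 and 0 to 1436 against the control shRNA, 0 to 5 members for lymphoma, 0 to 3 for lymphoma minus myeloma and 0 to 1 for the change per day. For lymphoma, lymphoma minus myeloma and the change per day, the fits with the most members stand above with their shares of all features called.

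PKM, ENO2, PGK1, SLC2A1, SLC2A3 and LDHA kept a myeloma value below 0 in every alternative. ENO1 (0.0174) and ALDOA (0.0561) turned positive with the sign of SKMM1 repeat 3 turned. GAPDH turned positive with median-centring (0.0703), centring and scaling (0.0625, in units of each array's spread), array weights (0.001), the sign of SKMM1 repeat 3 turned (0.14) and all days (0.0167), and ranged from -0.125 to 0.0864 over left-out courses. TPI1, at 0.0011, turned negative without the wide arrays in course means (-0.18), on single arrays (-0.175), after centring these (-0.185), with array weights (-0.21), and with the sign of SKMM1 repeat 2 (-0.12) or, on single arrays, repeat 3 (-0.16) turned, and ranged from -0.243 to 0.0826 over left-out courses.

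With the replicate number as a block between SKMM1 and H929 repeats 1 and 2, limma called 0 members and 0 features (1 feature at an unadjusted p under 0.05), and PKM differed by -0.24 (adjusted p = 1). The deviations of same-numbered repeats correlated at -0.60 over 2 pairs. The lines differ and the labels give no shared batch or day, so the number was not taken as a pairing.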
